A study of Homo sapiens with 22 samples.

Results

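Stand-alone long noncoding RNA (lncRNA) promoters were taken as windows of 1 kb on each side of the transcription start sites of basic GENCODE lncRNA transcripts (hg19) that lay more than 5 kb from every basic protein-coding start site. Genes named SNHG, GAS5, ZFAS1, DANCR or as MIR host genes were left out, which removed 88 genes, and overlapping windows were joined. This left 15332 windows with 20782 start sites of 14065 genes, of 18702 basic lncRNA genes in the annotation. Of these windows, 10247 belong to genes with an Ensembl identifier and no symbol. They were set against 24298 windows built in the same way around protein-coding starts, so that 39630 windows were compared in all. The lncRNA windows had a mean width of 2086 bp and covered 1.033% of the genome. The rule itself reads only the annotation and no peak value.

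The data are 16 lists of chromatin immunoprecipitation and sequencing (ChIP-seq) peaks from CHP-134 and IMR-32, established human neuroblastoma lines that both carry amplified MYCN. CHP-134 cells received dimethyl sulfoxide (DMSO) as vehicle, or a compound that the labels give under more than one code name, for 4 h, and 3 N-MYC and 3 WDR5 lists came from each arm. IMR-32 cells were untreated and gave 2 N-MYC lists (replicates 1 and 2) and 2 WDR5 lists (replicates 1 and 3). N-MYC was precipitated with a custom serum, each library pooled 3 ChIPs, and 6 IgG samples were not analysed here. The dose of the compound and the control library used in peak calling are not given in the sources used here. The lines were sequenced on different instruments, so that line and sequencing run cannot be told apart. The depth is unknown because the deposited lists hold no totals of reads, and the length of a list is the only sign of it. The DMSO lists held 9125 to 15286 N-MYC and 1671 to 4891 WDR5 peaks, and the IMR-32 lists 5242 to 8286 and 1258 to 1693. Among compound lists, N-MYC replicate 2 (2964 peaks) and WDR5 replicates 2 and 3 (15 and 401 peaks) were far shorter than the others of their group (11249 and 12313 N-MYC peaks, 5973 WDR5 peaks).

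N-MYC, the product of MYCN, is a basic helix-loop-helix protein that pairs with MAX. It binds DNA at promoters and at distal sites, with highest affinity for the E-box CACGTG. WDR5 is a WD-repeat protein of histone methyltransferase complexes and other chromatin regulators, and it binds MYC proteins through a conserved segment. LncRNA genes are transcribed by RNA polymerase II and processed like messenger RNAs but carry no long reading frame. Many of them start beside a protein-coding promoter, where a peak cannot be assigned to either gene, and the distance rule keeps only those that do not.

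The sequences below show what lies under the N-MYC summit, the highest point of a peak, at 9 lncRNA windows to which the results return. They were read from the GRCh37 reference on the plus strand, 50 bp on each side of an N-MYC summit of the DMSO lists. In each list the peak with the highest fold in the window was taken, and of these peaks the one with the lowest q-value. Capitals mark CACGTG, which reads the same on both strands. The first 6 hold it within the 101 bp shown and the last 3 do not. Of 415 lncRNA windows with N-MYC read in this way, 103 held it.
ENSG00000286874, chr7:4681697-4681797: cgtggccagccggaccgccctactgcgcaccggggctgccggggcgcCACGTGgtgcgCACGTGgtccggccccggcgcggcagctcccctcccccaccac
ENSG00000234692, chr9:118017161-118017261: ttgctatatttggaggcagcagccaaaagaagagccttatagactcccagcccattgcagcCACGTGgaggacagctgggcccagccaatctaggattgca
LINC02851, chr9:6704236-6704336: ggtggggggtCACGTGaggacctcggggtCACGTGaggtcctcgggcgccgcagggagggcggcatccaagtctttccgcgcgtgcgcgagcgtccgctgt
ENSG00000237301, chr1:15930150-15930250: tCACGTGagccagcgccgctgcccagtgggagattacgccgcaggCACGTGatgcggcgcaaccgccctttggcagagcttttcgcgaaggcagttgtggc
LINC00839, chr10:42971023-42971123: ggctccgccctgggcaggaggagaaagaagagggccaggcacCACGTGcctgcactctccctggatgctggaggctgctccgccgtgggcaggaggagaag
LINC01970, chr17:80250635-80250735: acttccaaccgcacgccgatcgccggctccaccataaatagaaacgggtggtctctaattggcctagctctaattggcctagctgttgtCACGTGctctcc
MALAT1, chr11:65264983-65265083: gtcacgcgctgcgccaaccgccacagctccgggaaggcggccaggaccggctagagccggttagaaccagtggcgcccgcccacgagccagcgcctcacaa
NEAT1, chr11:65189974-65190074: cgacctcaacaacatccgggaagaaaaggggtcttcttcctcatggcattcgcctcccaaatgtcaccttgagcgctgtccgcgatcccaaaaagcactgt
CASC15 and NBAT1, chr6:22146442-22146542: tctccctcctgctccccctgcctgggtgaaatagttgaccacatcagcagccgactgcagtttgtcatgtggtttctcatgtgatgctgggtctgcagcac

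CACGTG occurred within 100 bp of a start site in 3.21% of all lncRNA windows and 4.84% of coding windows, and anywhere in 22.2% and 29.6%. A match is only a description of the letters. Among lncRNA windows with an N-MYC peak in at least 2 DMSO libraries, called N-MYC windows of CHP-134 from here on, 49.9% held CACGTG, against 46.9% of such coding windows. Base composition differed along with it. The median GC content of these lncRNA windows was 54.5%, against 44% for all lncRNA windows.

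N-MYC and WDR5 peaks were far less frequent in lncRNA windows than in coding windows in every list with peaks in both. In the DMSO libraries, N-MYC peaks lay in 3.77%, 2.17% and 2.99% of lncRNA windows (replicates 1 to 3), against 33.0%, 22.3% and 27.9% of coding windows. In IMR-32 the N-MYC shares were 2.08% and 1.38%, against 18.6% and 12.8%. The lowest coding share of any untreated N-MYC library was thus above the highest lncRNA share. Over all 8 N-MYC libraries the difference was −19.5 percentage points (SD 7.45), negative in 8 of 8 (exact sign-flip permutation test over libraries, two-sided, p = 0.0078125, the smallest that 8 libraries allow). With only the top 1000 peaks of each list it was −2.64 points (exact sign-flip permutation test, p = 0.0078125). WDR5 peaks lay in 1.31%, 0.463% and 0.417% of lncRNA windows with DMSO and in 0.411% and 0.333% in IMR-32. The coding shares of these lists were 13.3%, 5.72%, 4.92%, 5.32% and 4.02%. Over 8 WDR5 libraries the difference was −5.20 points (SD 4.05, 8 of 8 negative, exact sign-flip permutation test, p = 0.0078125), and −2.88 points with the top 1000 peaks of the 6 lists that gave a value (exact sign-flip permutation test, p = 0.03125). These libraries come from only 2 lines, so the p-values measure the spread between libraries.

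**Figure D1:**
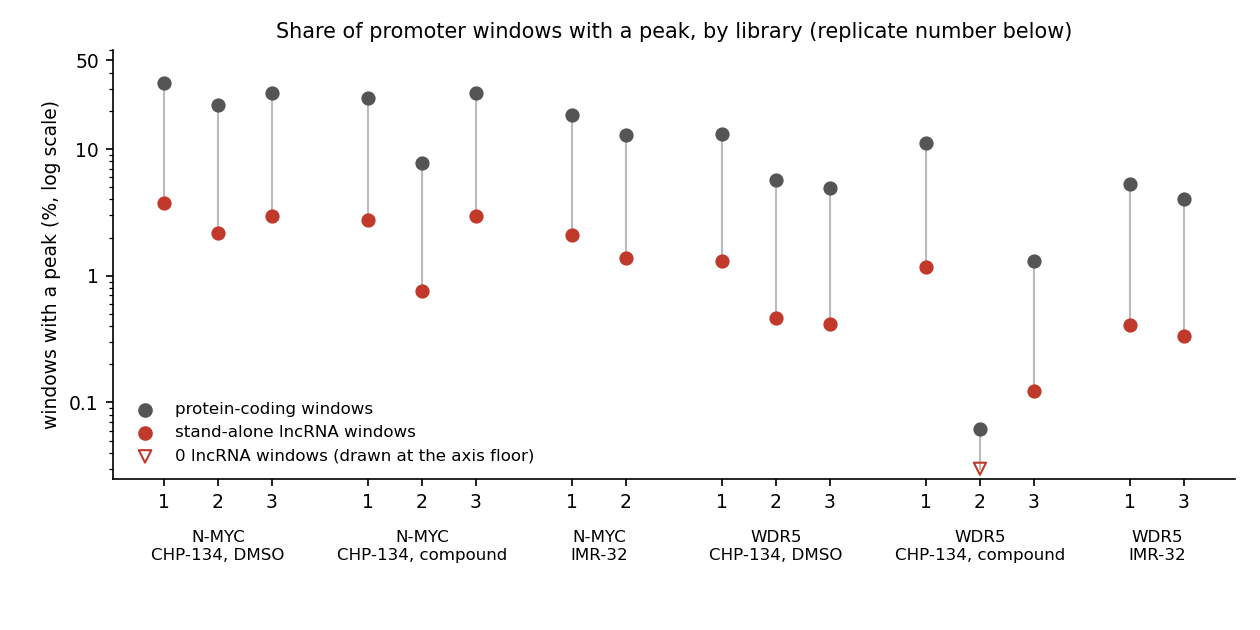
Percent of windows with a peak in each of the 16 libraries, on a log axis, for lncRNA windows and protein-coding windows, with N-MYC and WDR5 libraries side by side. Each point is 1 library, and an open triangle at the foot of the axis stands for a share of 0. In N-MYC libraries with DMSO the lncRNA points sit at 2.17% to 3.77% and the coding points at 22.3% to 33.0%.

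The lncRNA share divided by the coding share of the same list averaged 0.106 ± 0.00849 (SD, n = 3) for N-MYC and 0.0882 ± 0.00945 for WDR5 with DMSO. In IMR-32 it was 0.11 ± 0.00310 (n = 2) and 0.08 ± 0.00391. The ratio was thus higher for N-MYC than for WDR5 by 0.0238, averaged over the lines (exact permutation of the protein labels within each line, 120 relabellings, p = 0.0333, or 0.06 after Benjamini-Hochberg adjustment over the 9 planned tests). Leaving out 1 library of 4 in turn moved this p to 0.05, and it was 0.667 in CpG-rich windows (exact permutation tests). The lines did not differ beyond the spread between libraries on this ratio, with a difference of −0.00333 for N-MYC (p = 0.7) and 0.00817 for WDR5 (p = 0.5, exact permutation tests of 3 against 2 libraries, which cannot go below 0.1). The size of these differences depended on the setting. In CpG-rich windows they were −0.0388 (p = 0.2) and 0.101 (p = 0.1), and with the top 1000 peaks the N-MYC one was −0.0330 (p = 0.1, exact permutation tests). For the last pair of values the ratios of the lines did not overlap.

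The CpG content of the window went with peaks in both kinds of promoter. CpG-rich windows were defined, after the data had been seen, as those with at least 50% GC and an observed to expected CpG ratio of at least 0.6. Only 585 lncRNA windows (3.82%) met this, against 8882 coding windows (36.6%). In DMSO libraries, N-MYC peaks lay in 26.7% ± 5.56 (SD, n = 3) of CpG-rich lncRNA windows and in 2.04% ± 0.610 of the others. For coding windows the values were 54.4% ± 9.43 and 12.4% ± 2.99. Within lncRNA windows the CpG-rich ones were ahead by 19.8 points over 8 N-MYC libraries (8 of 8 positive, exact sign-flip permutation test, p = 0.0078125). For WDR5 they were ahead by 5.58 points (7 positive and 1 list with no peak, p = 0.015625, exact sign-flip permutation test).

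LncRNA windows stayed behind coding windows within each class, but by a smaller factor in the CpG-rich class. Over the 5 untreated libraries of each protein (DMSO and IMR-32), the lncRNA to coding ratio ranged from 0.474 to 0.542 for N-MYC in CpG-rich windows and from 0.150 to 0.171 in the others. For WDR5 the ranges were 0.435 to 0.6 and 0.0896 to 0.128. No range of CpG-rich windows overlapped that of the other windows. The N-MYC difference was −21.4 points in CpG-rich and −8.27 points in other windows, and the WDR5 difference −5.23 and −2.31 points, each negative in 8 of 8 libraries (exact sign-flip permutation tests, p = 0.0078125 each). Among the N-MYC windows of CHP-134, 34.6% of lncRNA and 72.6% of coding windows were CpG-rich.

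**Figure D2:**
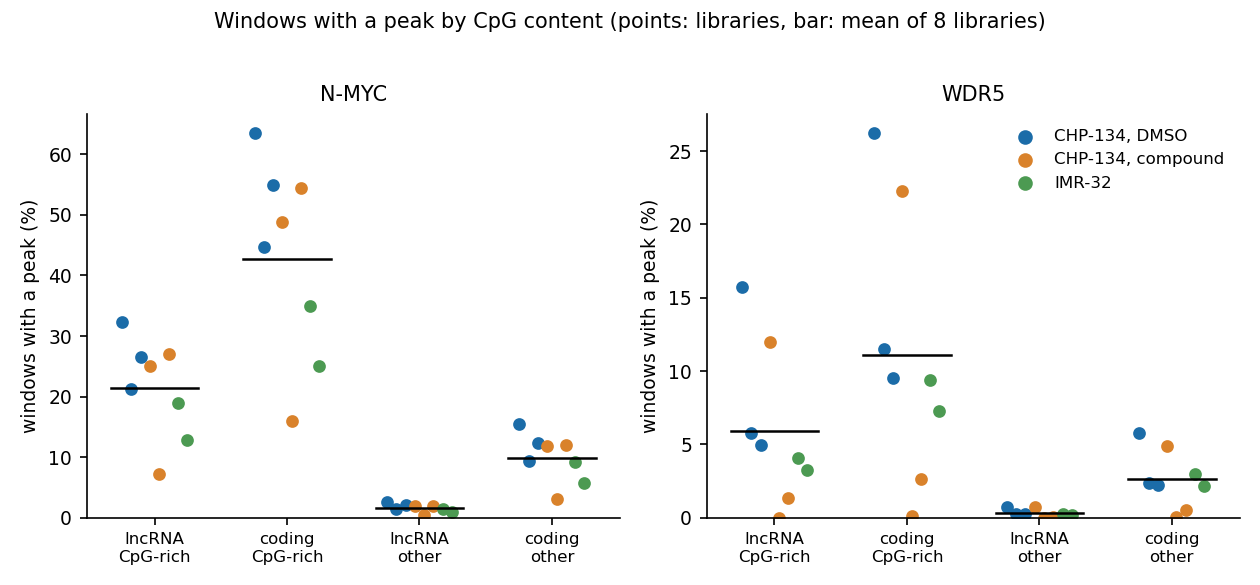
Percent of windows with a peak in CpG-rich windows and in other windows, for lncRNA and coding windows, with N-MYC in one panel and WDR5 in the other. Points are libraries and each bar is the mean of 8 libraries. CpG-rich lncRNA windows hold N-MYC more often than other lncRNA windows (means 21.4% and 1.61%), and below CpG-rich coding windows (42.8%).

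Peaks inside lncRNA windows were compared with peaks in coding windows of the same list on 4 measures. The deposited fold, the enrichment of a peak over its control, was used only as a percentile within its own list. The mean percentile of N-MYC peaks was lower in lncRNA windows by 2 percentile points (value −2.0, SD 1.26, 8 of 8 libraries, exact sign-flip permutation test, p = 0.0078125). CACGTG lay within 100 bp of the summit of 30.5% ± 4.43 (SD, n = 3) of N-MYC peaks in lncRNA windows and 25.6% ± 3.20 in coding windows with DMSO, and 2 kb away it was found at 2.65% and 2.04%. Over all 8 libraries this E-box share was higher in lncRNA windows by 3.99 points (8 of 8, exact sign-flip permutation test, p = 0.0078125). Among the top 1000 peaks of each list it turned to −4.14 points (exact sign-flip permutation test, p = 0.156). WDR5 summits held CACGTG at 15.3% ± 4.63 in lncRNA and 17.8% ± 1.91 in coding windows. N-MYC summits lay within 250 bp of a start at 55.6% ± 2.04 in lncRNA windows and 66.3% ± 0.614 in coding windows (difference over 8 libraries −11.1 points, SD 3.17, exact sign-flip permutation test, p = 0.0078125). Distance was taken to the nearest start of the window. Coding windows held more starts (56286 in 24298 windows) than lncRNA windows (20782 in 15332), which by itself places more summits near a start. The part of this in the difference was not tested.

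At N-MYC windows of CHP-134, WDR5 was found at 145, 59 and 47 of 439 lncRNA windows in DMSO replicates 1 to 3 (33.0%, 13.4% and 10.7%). At the 6733 such coding windows the shares were 39.4%, 18.1% and 15.7%. In IMR-32, 27 and 23 of 166 N-MYC windows held WDR5 (16.3% and 13.9%), against 23.1% and 18.8% of 2617 coding windows. The lncRNA share was the lower one in 5 of 5 libraries, by 5.58 points on average (value −5.58, SD 0.972, exact sign-flip permutation test, p = 0.063, the smallest that 5 libraries allow).

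The same measures were then taken within CpG-rich windows, where 3 of the 4 gave no difference beyond the spread. The WDR5 share of CpG-rich N-MYC windows was 48.7%, 21.1% and 16.4% at 152 lncRNA windows and 41.1%, 18.8% and 16% at coding windows with DMSO. In IMR-32 it was 22.7% and 16.7% at 66 lncRNA windows, against 22.6% and 18.7%. The difference was 1.68 points, and not distinguishable from the spread (exact sign-flip permutation test, p = 0.3125). Neither the fold percentile (0.564, p = 0.3125) nor the share of summits near a start (−0.754 points, p = 0.34375) differed beyond the spread (exact sign-flip permutation tests, 8 libraries). The E-box share differed by 7.70 points (p = 0.0078125, exact sign-flip permutation test), with 31.3% ± 6.01 of lncRNA and 24.4% ± 2.91 of coding peaks with DMSO.

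In windows that were not CpG-rich the E-box shares did not differ beyond the spread and the other 3 measures had lower values at lncRNA windows. Whether the classes differ from each other was not tested. The E-box shares were 30.1% ± 3.59 and 28.7% ± 4.15 with DMSO and differed by −0.229 points over 8 libraries (exact sign-flip permutation test, p = 0.766). Summits near a start made up 52.4% ± 1.77 in lncRNA and 77.1% ± 0.436 in coding windows, a difference of −25.1 points over 8 libraries (exact sign-flip permutation test, p = 0.0078125). The number of starts in a window was not held equal here either. The fold percentile differed by −2.68 (exact sign-flip permutation test, p = 0.0078125). WDR5 was found at 24.7%, 9.41% and 7.67% of 287 lncRNA N-MYC windows with DMSO and 12.0% and 12.0% of 100 in IMR-32, against 34.9%, 16.2%, 15%, 24.5% and 19.2% of coding windows. This difference of −8.80 points had the sign of the pooled one in 5 of 5 libraries (exact sign-flip permutation test, p = 0.063).

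**Figure D3:**
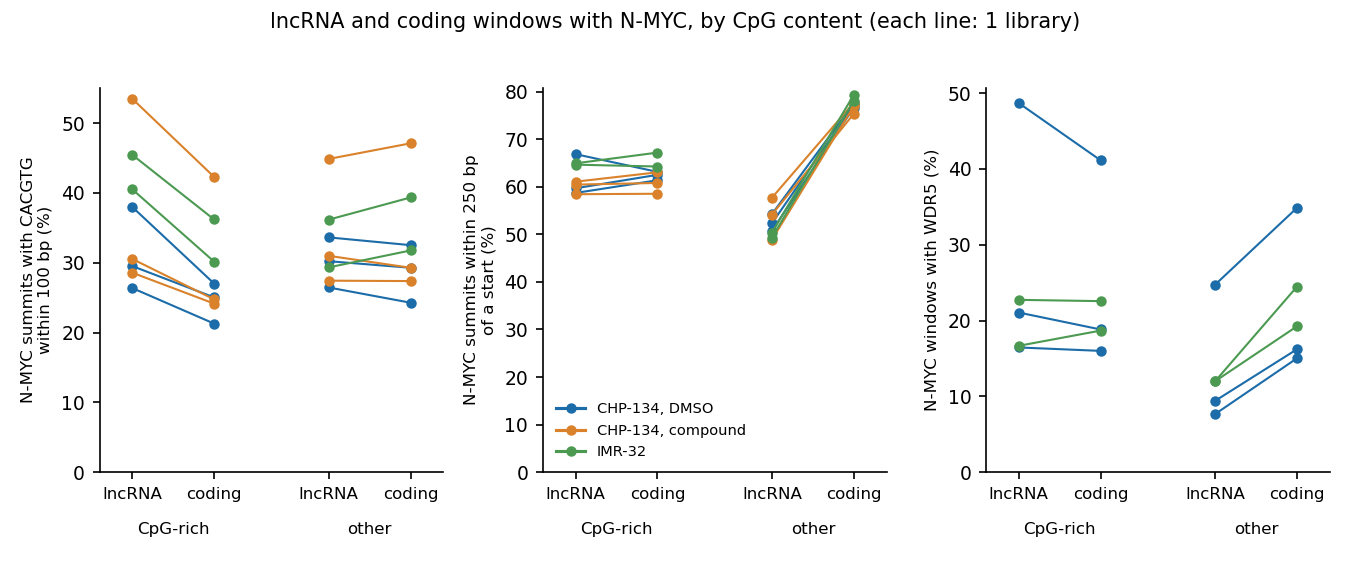
Share of N-MYC peaks with CACGTG at the summit, share of N-MYC summits within 250 bp of a start, and share of N-MYC windows with WDR5, in percent, for lncRNA and coding windows in CpG-rich and other windows. Each line joins the lncRNA and coding value of 1 library. The share near a start falls from 77.1% in coding to 52.4% in lncRNA windows that are not CpG-rich (means with DMSO), and is 62.3% and 61.8% in CpG-rich windows.

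Peaks went with the layout of start sites in lncRNA windows and in coding windows alike. In 565 windows starts lay on both strands, as at divergent lncRNA pairs. N-MYC peaks lay in 13.7% ± 2.91 (SD, n = 3) of these with DMSO and in 2.56% ± 0.725 of windows with starts on 1 strand. The difference was 9.17 points over 8 N-MYC libraries (8 of 8 positive, exact sign-flip permutation test, p = 0.0078125). For coding windows the DMSO values were 57.8% ± 10.9 and 25.8% ± 4.99, and the difference 27.6 points (8 of 8 positive, exact sign-flip permutation test, p = 0.0078125). A window with starts on both strands holds more than 1 start and can be wider for that. The part of width in these differences was not tested. Both-strand windows made up 17.5% of N-MYC windows of CHP-134 (77 of 439), against 3.69% of all lncRNA windows. Windows of genes with a symbol held N-MYC in 4.35% ± 1.03, and those of genes known by identifier only in 2.30% ± 0.683.

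The share with N-MYC fell with distance from the nearest coding start even beyond the limit of the rule. With DMSO it was 4.65% ± 1.3 (SD, n = 3) for 1349 windows within 5 to 10 kb and 1.17% ± 0.444 for 3497 windows over 200 kb away, with 4.13%, 3.55%, 3.05% and 2.84% in the bins between. Over 8 N-MYC libraries the nearest bin exceeded the farthest by 2.76 points (8 of 8, exact sign-flip permutation test, p = 0.0078125), and over WDR5 libraries by 0.463 points (7 of 8, exact sign-flip permutation test, p = 0.015625). The WDR5 share did not fall steadily. From the nearest to the farthest bin its DMSO means were 0.791%, 1.22%, 0.991%, 0.706%, 0.710% and 0.219%, and only the outermost bins were compared by a test. N-MYC windows lay at a median of 37.9 kb from a coding start, against 62.9 kb for all lncRNA windows. Starts outside coding genes had N-MYC at 3.44% ± 0.943, and starts inside a coding gene on its opposite strand at 1.95% ± 0.563.

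**Figure D4:**
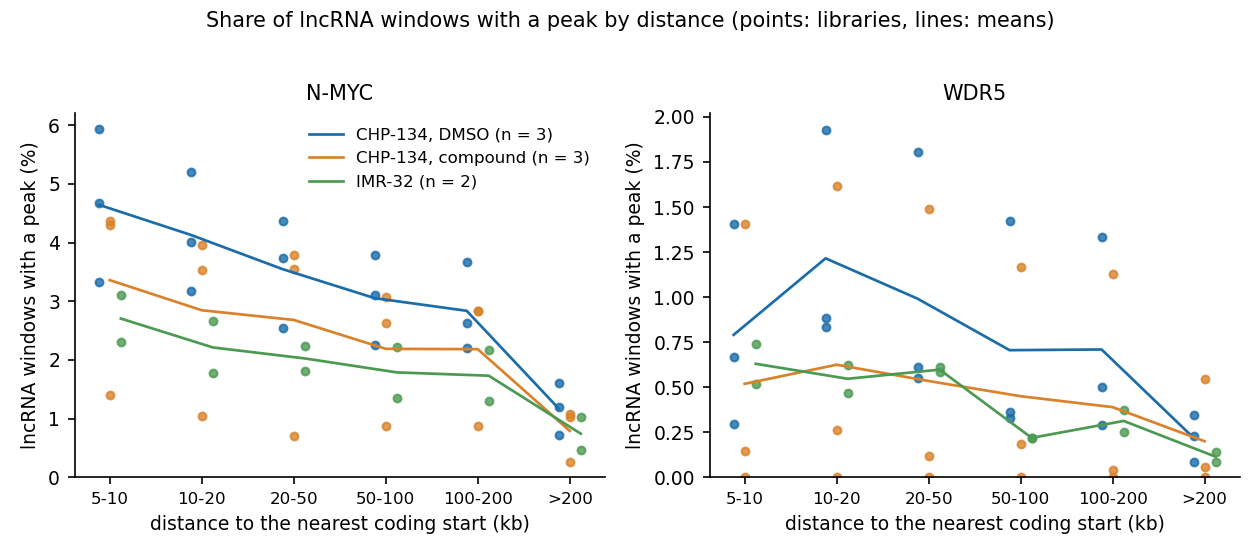
Percent of lncRNA windows with an N-MYC or WDR5 peak by distance to the nearest protein-coding start, in 6 bins of kb. Points are libraries. The N-MYC share with DMSO goes from a mean of 4.65% in the nearest bin to 1.17% in the farthest.

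Counted over replicates, 439 lncRNA windows held N-MYC in at least 2 DMSO libraries (2.86%, exact Clopper-Pearson 95% interval 2.61 to 3.14, which covers the count of windows only), against 27.7% of coding windows and 18.1% of all windows compared. WDR5 in at least 2 DMSO libraries was found at 74 lncRNA windows (0.483%), against 5.74% of coding and 3.71% of all windows. Both proteins were found at 62 lncRNA windows, where the rate over all windows was 3.34%. The other 12 lncRNA windows with WDR5 had N-MYC in fewer than 2 DMSO libraries, as had 135 coding windows (0.371% of all windows). These counts rest in part on single libraries. Without DMSO N-MYC replicate 1 the N-MYC count was 278. Without WDR5 replicate 1, which had the longest list, 37 windows held WDR5 and 30 held both, and without WDR5 replicate 2 the counts were 47 and 38. In genes, 524 of 14065 (3.73%) had a window with N-MYC and 95 had one with WDR5. Over all 16 lists, 867 lncRNA windows (5.65%) had a peak of either protein, against 40.7% of coding windows.

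Other annotated starts and near copies of the sequence touched some of these windows. Of the 439 N-MYC windows, 62 (14.1%) also held a start of another gene type such as a pseudogene or small RNA, against 4.89% of all lncRNA windows, 28 held a non-basic coding start and 6 a start of an lncRNA gene left out by name. A near copy elsewhere in the genome (at least 95% identity over at least 90% of 201 bp around the summit) was found for 30 of 439 lncRNA N-MYC windows (6.83%) and 48 of 6733 coding windows (0.713%). For WDR5 it was 10 of 74 (13.5%) against 6 of 1395 (0.430%). Reads from such copies may not be told apart, so peaks there are uncertain. Without them 409 N-MYC and 64 WDR5 windows remained.

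The lncRNA windows with the highest mean N-MYC percentile with DMSO were led by ENSG00000286874 (chr7:4680879-4682879), 40.0 kb from the FOXK1 start. Its N-MYC folds were 31.8, 36.2 and 33.6 with DMSO, 20.2, 23.1 and 36.5 with the compound, and 22.0 and 32.0 in IMR-32. Each of these ranked at or above the 99.7th percentile of its list. The summit lay upstream of the start with a pair of CACGTG in the span shown above. WDR5 was weaker there, with folds of 3.81 and 4.98 in DMSO replicates 1 and 2 and no peak in replicate 3 or in IMR-32. The window is CpG-rich, with 58.9% GC and a CpG ratio of 0.784.

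Next in order was ENSG00000234692 (chr9:118015530-118017530), which unlike the first is not CpG-rich (38.3% GC). N-MYC folds were 17.5, 15.5 and 22.7 with DMSO, 16.6, 12.1 and 20.2 with the compound, and 11.7 and 9.49 in IMR-32. No WDR5 list had a peak there. Its summit lay at −681 bp, upstream of the start, in DNA with 1 CACGTG. The third window holds ENSG00000274215 and ENSG00000258922 on opposite strands (chr15:93350681-93352797), 91.6 kb from the start of CHD2, which encodes a chromatin remodeller. Starts in this window lie within coding genes, on the same and on the opposite strand. N-MYC folds there were 14.9, 13.0 and 17.9 with DMSO and 22.2 and 20.2 in IMR-32.

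All 10 windows with the highest mean N-MYC percentile in CHP-134 also had an N-MYC peak in both IMR-32 lists. The percentiles in IMR-32 were not used to choose them. Of these 10, 6 are CpG-rich, 6 had CACGTG at the summit and 4 have starts on both strands. Of all 439 lncRNA N-MYC windows of CHP-134, 127 had N-MYC in both IMR-32 lists. Among the 439, 152 are CpG-rich, 132 had CACGTG at the summit and 77 have starts on both strands. Coding windows of equal rank were not examined. The other windows of the 10 were those of the pair ENSG00000286180 and ENSG00000286171, ENSG00000291073, IER5L-AS1, ENSG00000289057, LINC01237, LINC01465 and TENM3-AS1. LINC01237 (chr2:242822514-242825576) had folds of 13.8, 9.91 and 16.4 with DMSO and 17.4 and 10.8 in IMR-32, and no WDR5 peak in any list. The LINC01465 window also holds starts of the let-7i microRNA gene and its host, and the TENM3-AS1 window a non-basic start of TENM3. The ENSG00000286180 window holds a start of the small RNA gene RNY5, and the ENSG00000291073 window a start of the pseudogene SLC7A5P2. The peaks of these windows cannot be assigned to the lncRNA alone.

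**Figure D5:**
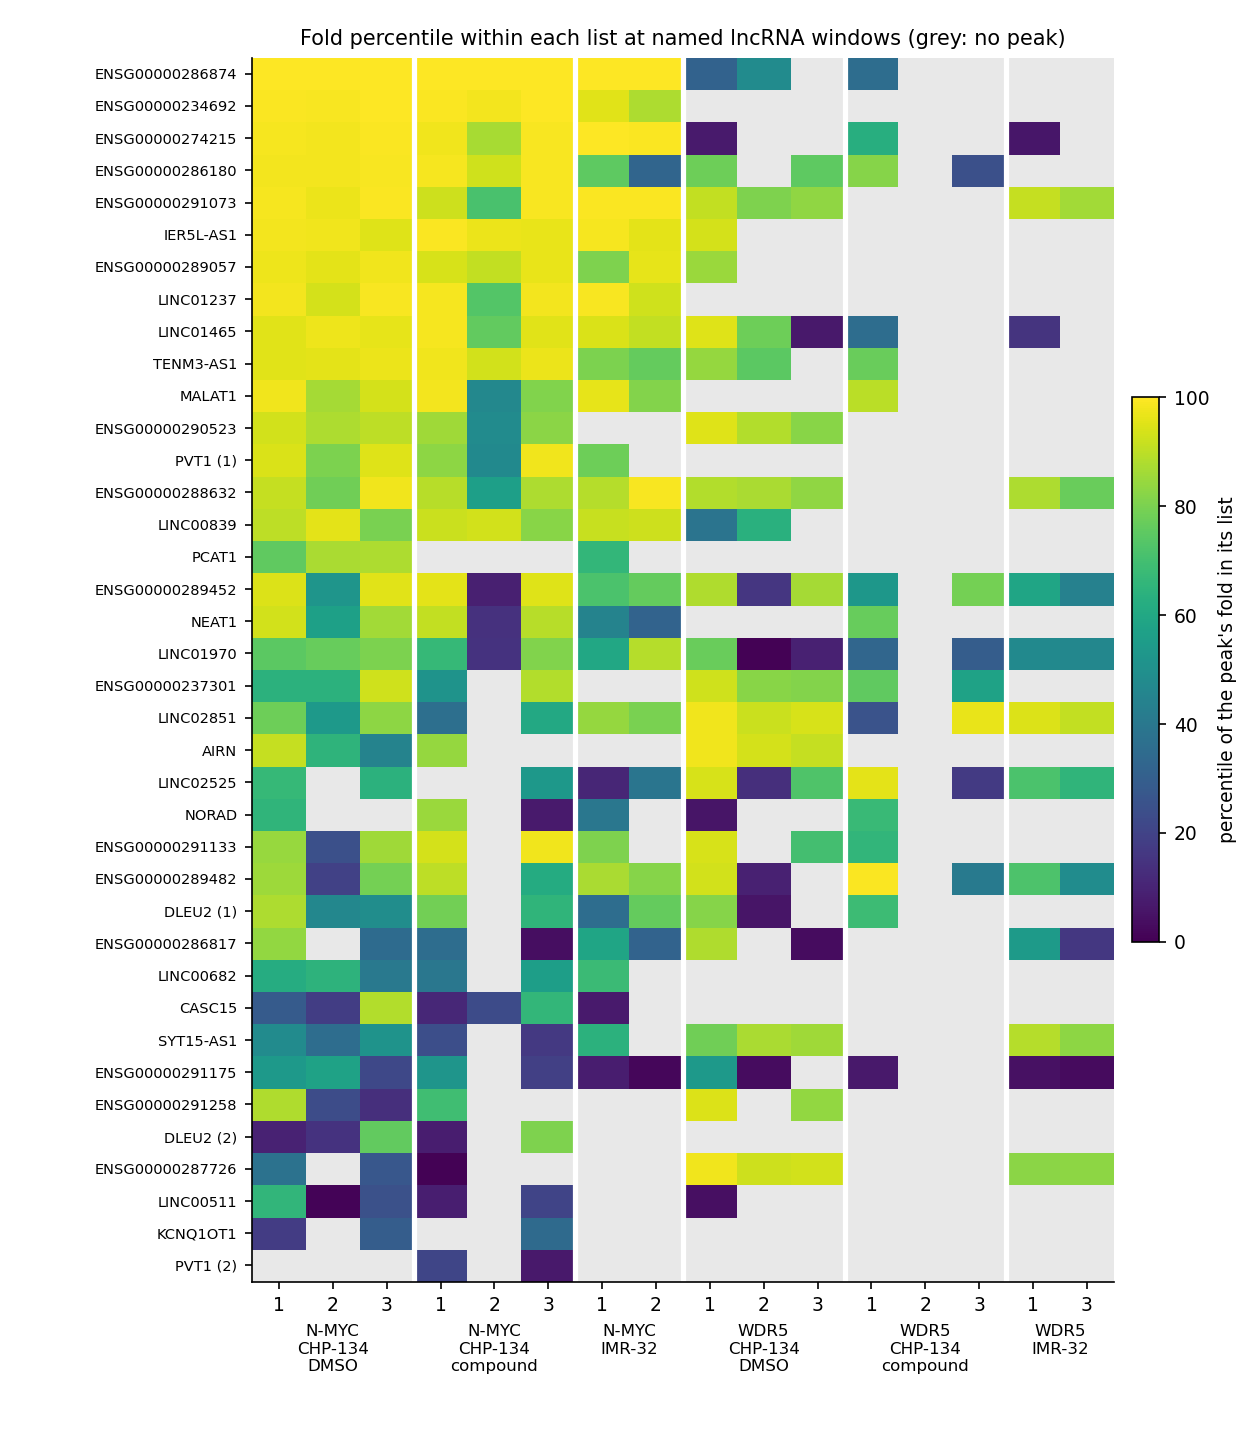
Percentile of the fold within its list, for the lncRNA windows named by rule and the 16 libraries, as a colour scale, with grey where no peak was called. The windows chosen for N-MYC fold are filled in all N-MYC columns of IMR-32. WDR5 columns are sparser, and the WDR5 compound columns of replicates 2 and 3 are mostly grey.

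Among the 62 lncRNA windows with both proteins, N-MYC and WDR5 summits lay a median of 123 bp apart, 33 windows were CpG-rich, 24 had CACGTG at the N-MYC summit and 19 had starts on both strands. As shares, 53.2% were CpG-rich and 30.6% had starts on both strands, against 74.6% and 15.6% of coding windows with both proteins. For all 439 lncRNA N-MYC windows of CHP-134 these shares were 34.6% and 17.5%, and 132 had CACGTG at the summit. The highest mean WDR5 percentile with DMSO belonged to LINC02851 (chr9:6703270-6705270), 16.6 kb from the start of KDM4C, a histone demethylase gene. WDR5 folds were 20.1, 14.6 and 23.8 with DMSO (percentiles 97.7, 92.2 and 94.1) and 68.1 and 46.1 in IMR-32 (percentiles 94.6 and 90.7). With the compound a WDR5 peak was listed in replicates 1 and 3, with folds of 3.54 and 9.34. N-MYC folds were lower in rank, at 6.86, 5.35 and 7.79 with DMSO and 8.16 and 8.25 in IMR-32. The N-MYC summit lay 16 bp into the first exon beside a pair of CACGTG, and the WDR5 summit 283 bp from it.

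ENSG00000287726 (chr5:141262055-141264055) lies 5.08 kb from the start of PCDH1, a protocadherin gene, and so just beyond the limit of the rule. WDR5 folds were 23.3, 14.8 and 18.0 with DMSO and 15.4 and 20.6 in IMR-32, whereas no compound list had a WDR5 peak. N-MYC was weak, with folds of 4.41 and 4.2 in DMSO replicates 1 and 3 and no peak in IMR-32. AIRN, an imprinted RNA antisense to IGF2R, had WDR5 folds of 21.8, 17.4 and 12.7 and N-MYC folds of 9.47, 5.90 and 4.92 with DMSO. Neither protein was listed there in IMR-32, and the compound lists held N-MYC in replicate 1 only (7.37). Both AIRN summits lay more than 1 kb from the start, just outside its window (chr6:160427696-160429696), so that these peaks overlap the window without being centred in it.

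The other 7 windows with the highest WDR5 percentiles are known by identifier only, except SYT15-AS1, which has a near copy. For 5 of the 10 the WDR5 summit had a near copy elsewhere. The windows of ENSG00000288632, ENSG00000291073 and ENSG00000291133 also hold starts of the pseudogenes SLC7A5P1, SLC7A5P2 and DPY19L2P1, in this order. ENSG00000290523 (chr21:11097980-11099980) had no copy by this measure, with WDR5 folds of 9.21, 10.1 and 7.32 and N-MYC folds of 10.1, 8.28 and 9.17 with DMSO, and no peak in IMR-32. ENSG00000237301 (chr1:15929121-15931121) had summits of N-MYC and WDR5 3 bp apart, beside the pair of CACGTG shown above, in a window that also holds the start of the pseudogene CHCHD2P6. Its WDR5 folds were 7.51, 7.44 and 7.22 and its N-MYC folds 5.68, 5.89 and 10.2 with DMSO. IMR-32 lists had no peak of either protein in this window.

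In IMR-32, 166 lncRNA windows held N-MYC in both lists (1.08%, against 7.02% of all windows), 43 held WDR5 in both (0.280%, against 2.1%) and 20 held both proteins (against 1.06%). N-MYC was found in both lines at 127 lncRNA windows, where 6.61% of all windows were, and in all 8 N-MYC lists at 69, where 3.38% were. At the 439 N-MYC windows of CHP-134, the IMR-32 lists had a peak at 214 and 153 (48.7% and 34.9%), against 58.1% and 42.5% of the coding windows. At the 74 WDR5 windows they had one at 27 and 22 (36.5% and 29.7%), against 49.7% and 43.7%. In both lists of each protein the lncRNA share was the lower one. Both proteins in both lines were found at 9 lncRNA windows, and at 0.795% of all windows.

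These 9 windows were those of LINC02851, ENSG00000288632, ENSG00000291073, ENSG00000289452, LINC02525, ENSG00000286817, LINC01970, ENSG00000291175 and the pair ENSG00000289482 and ENSG00000271780. Of them 7 are CpG-rich and 4 had CACGTG at the N-MYC summit. At 3 the WDR5 summit had a near copy, and the ENSG00000286817 window also holds a start of SNHG21, a gene left out by name. The ENSG00000288632 and ENSG00000291073 windows also hold starts of the pseudogenes SLC7A5P1 and SLC7A5P2. At ENSG00000291175 the mean percentiles in IMR-32 were low, at 4.90 for N-MYC and 3.77 for WDR5. LINC01970 (chr17:80249690-80252592) was among the windows without a near copy or such a start, though it also holds ENSG00000260563. Its N-MYC folds were 6.55, 6.82 and 7.44 with DMSO and 5.85 and 9.79 in IMR-32, and its WDR5 folds 5.34, 2.82 and 3.47 and then 5.78 and 6.69. The WDR5 percentiles with DMSO were 77.0, 0.768 and 9.13, so replicates 2 and 3 ranked near the bottom of their lists. LINC02525 (chr6:3195018-3197018), 31.9 kb from the tubulin gene TUBB2B, had WDR5 folds of 8.47, 3.73 and 6.12 with DMSO and 9.47 and 9.16 in IMR-32, without CACGTG anywhere in the window.

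Windows with a peak in 1 line and not in the other were also counted. N-MYC was listed in 3 of 3 DMSO lists and in no IMR-32 list at 80 lncRNA windows (0.522%) and 1213 coding windows (4.99%), together 3.26% of all windows. The opposite pattern, both IMR-32 lists and no DMSO list, was found at 20 lncRNA and 49 coding windows (0.174% of all windows). LncRNA windows made up 29.0% of these 69 windows, against 6.12% of all N-MYC windows of CHP-134. They were also 15332 of the 39630 windows compared. As a rate, the pattern was found at 0.130% of lncRNA and 0.202% of coding windows, so it was not more frequent in lncRNA windows. WDR5 in both IMR-32 lists and no DMSO list was found at 12 lncRNA windows (0.0783%) and 109 coding windows (0.449%), together 0.305% of all. Of the 20 IMR-32 N-MYC windows, 6 are CpG-rich and 6 lie on chromosome 2, and the mean fold percentile of the 20 ranged from 0.355 to 95.8 with a median of 44.9. Of the 49 coding windows, 25 are CpG-rich and 9 lie on chromosome 2, which holds 1250 of all 15332 lncRNA windows. The 6 lncRNA windows on chromosome 2 had mean percentiles of 0.355, 0.552, 2.38, 13.7, 50.9 and 93.7. The windows of CHP-134 alone (80) included 4 on chromosome 2, and 32 were CpG-rich.

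Chromosome 2 carries MYCN and, farther along, MEIS1, a homeobox gene, and the windows around both were examined after the counts had been seen. Of 19 lncRNA windows within 1 Mb of MYCN, none had a peak in any CHP-134 list. In IMR-32, ENSG00000237326 (chr2:15950001-15952001) had WDR5 in both lists, with folds of 1.92 and 1.88, and N-MYC in 1 list with 1.66. Those folds ranked near the bottom of their lists (percentiles 2.57, 1.31 and 0.434). Of 24 windows within 1 Mb of MEIS1, 4 had N-MYC in both IMR-32 lists and 1 in at least 2 DMSO lists. The percentiles in IMR-32 were low there too, at 0.0422 to 13.7.

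Known lncRNA genes were read from lists of 48 names, of which 44 were in the annotation and 35 had a window that met the rule. N-MYC in at least 2 DMSO libraries was found for 12 of the 35, WDR5 for 3, and N-MYC in both IMR-32 lists for 4. Over all 14065 genes the shares were 3.73%, 0.675% and 1.48%. The listed genes often have several starts, with 101 windows for 35 genes. They were chosen with results of these data known, so their share is a description. HOTAIR, HOTTIP, MYCNOS and GATA3-AS1 were among those that lie within 5 kb of a coding start and were left out for that reason.

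Of 12 nuclear and general lncRNAs, MALAT1, NEAT1 and LINC00511 held N-MYC with DMSO. MALAT1 is an abundant RNA of nuclear speckles, and its window joins 11 starts on both strands, with ENSG00000270117 among them (chr11:65264159-65271820). Its N-MYC folds were 13.5, 8.07 and 10.6 with DMSO, 12.8, 5.11 and 7.64 with the compound and 12.4 and 8.49 in IMR-32. NEAT1, the scaffold of paraspeckles, shares its window with ENSG00000290057, so neither peak can be assigned to 1 gene alone. The NEAT1 window had folds of 10.1, 5.48 and 8.26, then 8.66, 3.9 and 9.17, and 5.14 and 5.27 in IMR-32. Neither had a WDR5 peak in DMSO or IMR-32 lists, and each had 1 in compound replicate 1. Neither span shown above holds CACGTG. LINC00511 had weaker folds of 5.79, 2.80 and 4.11 and no IMR-32 peak. NORAD, an RNA that binds Pumilio proteins, was listed in at least 2 compound libraries but not in 2 DMSO libraries.

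Of 7 imprinted lncRNAs, KCNQ1OT1 and AIRN held N-MYC. KCNQ1OT1, which is antisense to KCNQ1, had folds of 3.66 and 4.29 in DMSO replicates 1 and 3 and none in replicate 2 or in IMR-32. H19 had a peak in at least 1 list, and MEG3, MEG8, MEG9 and PEG13 had none. IFNG-AS1, whose RNA is known to bind WDR5, had no peak of either protein in any list.

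Of 9 genes tied to neuroblastoma or the sympathetic lineage, 5 held N-MYC in at least 2 DMSO libraries, namely CASC15, NBAT1, LINC00839, LINC00682 and DLEU2. CASC15 and NBAT1, which lie at a neuroblastoma risk locus on 6p, share 1 window (chr6:22145555-22148422) and so 1 set of values. Its N-MYC folds were 4.08, 3.93 and 8.80 with DMSO, 3.38, 4.25 and 6.20 with the compound, and 3.50 in 1 IMR-32 list. LINC00839 (chr10:42969928-42972762) had folds of 9.0, 11.2 and 7.36 with DMSO, 8.95, 8.57 and 7.76 with the compound and 9.84 and 10.7 in IMR-32, at or above the 79.9th percentile in each list. It also held WDR5 in DMSO replicates 1 and 2 (4.03 and 5.66). LINC00682 (chr4:41882646-41885972) had N-MYC folds of 5.51, 5.90 and 4.73 and 6.37 in 1 IMR-32 list. DLEU2, the host of miR-15a and miR-16-1, had N-MYC at 2 windows, and WDR5 with folds of 5.64 and 3.38 at the one it shares with ENSG00000274270. MYCNUT, DLX6-AS1, RMST and HAND2-AS1 had no peak in any list.

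Of 6 lncRNA genes around MYC, PVT1 and PCAT1 held N-MYC. PVT1, the neighbour of MYC, had folds of 10.7, 7.19 and 11.4 with DMSO, 7.18, 5.14 and 14.1 with the compound and 7.25 in 1 IMR-32 list. PCAT1 had 6.64, 8.19 and 8.62 with DMSO, no N-MYC peak with the compound and 6.31 in 1 IMR-32 list. Neither of these windows held WDR5. PVT1 has 8 windows, and its folds above are from the 1 window with N-MYC in at least 2 DMSO libraries. Another PVT1 window had WDR5 in compound replicate 1 (4.45) and N-MYC in 1 IMR-32 list (3.86). A further PVT1 window had N-MYC in 2 compound libraries.

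With the compound, 344 lncRNA windows (2.24%) held N-MYC in at least 2 libraries, where 14.2% of all windows did. WDR5 was found in at least 2 libraries at 11 lncRNA windows (0.0717%), where 0.565% of all windows had it. The lncRNA to coding ratio of N-MYC was 0.105 ± 0.00602 (SD, n = 3) with the compound and 0.106 ± 0.00849 with DMSO, a difference of −0.00119 (exact permutation test of 3 against 3 libraries, p = 1, smallest possible 0.1). Of the 264 lncRNA windows with N-MYC in all 3 DMSO libraries, 246, 113 and 248 kept a peak in compound replicates 1 to 3 (93.2%, 42.8% and 93.9%). For 4698 coding windows the shares were 89.9%, 39.0% and 94.9%. Replicate 2 is the short list of 2964 peaks, and without it the ratios differed by 0.00227. With the top 1000 peaks of each list the ratio was higher with the compound by 0.0174, with no overlap between the arms (exact permutation test, p = 0.1).

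Of the 34 lncRNA windows with WDR5 in all 3 DMSO libraries, 14, 0 and 7 had a WDR5 peak in compound replicates 1 to 3 (41.2%, 0% and 20.6%). At 649 coding windows the shares were 55.6%, 2.16% and 22.2%. WDR5 lists of 15 and 401 peaks lie behind replicates 2 and 3, so a missing peak there cannot be told apart from a short list, and no test was made. WDR5 in 3 DMSO lists and no compound list was counted at 20 lncRNA windows (0.130%) and 261 coding windows (1.07%), together 0.709% of all windows. N-MYC in 3 DMSO lists and no compound list was counted at 4 lncRNA windows (0.0261%) and 94 coding windows (0.387%), together 0.247% of all. The 4 lncRNA windows were those of ITGA6-AS1, PCAT1, LINC02698 and ENSG00000259182. PCAT1 stood highest of these in DMSO, at percentiles 75.7 to 87.7, and the other windows ranged from 12.8 to 65.6.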

How the data were processed

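Chromatin of both lines was precipitated for N-MYC or WDR5 and sequenced. Per the methods and the submitters' processing notes, the authors aligned reads with Bowtie2 to hg19, called peaks with MACS2 in each library at a q-value of 0.05, and named DiffBind. Versions and the control library are not given in the sources used here. The deposited lists give each peak's fold enrichment (a ratio), its −log10 p and q, a score derived from them, and its summit. Depth is unknown, so precision cannot be derived from read counts, and folds were compared only as percentiles within a list.

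Windows were built from GENCODE v44lift37 on chromosomes 1 to 22, X and Y, and a window held a peak where they overlapped by at least 1 bp. Members and lists were chosen with earlier results of these data known. Named windows were the 10 with the highest mean WDR5 percentile with DMSO among those with both proteins in at least 2 libraries, the 10 with the highest mean N-MYC percentile among those with N-MYC in all 3, those with both proteins in both lines, and the genes of the lists, with the windows near MYCN and MEIS1 and those listed in 1 line or arm added after seeing values. Exact permutation and sign-flip tests over libraries, two-sided, were tested on simulated data. P-values are unadjusted unless an adjusted one is given. Over the 9 planned tests those of 0.0078125 became 0.0176. Alternatives were the summit in place of the whole peak, 500 bp windows, a 10 kb distance, −log10 q of at least 5, the top 1000 peaks, 1 window for each gene, no windows with other gene types, a replicate block and leaving out each library, and, chosen after seeing the data, CpG classes, near copies, genes left out by name and the short lists. The study's methods describe independent ChIP experiments, and the labels give only replicate numbers. Python 3.11.15, NumPy 2.4.6, pandas 2.3.3, SciPy 1.17.1, pysam 0.24.0, Matplotlib 3.10.9 and BLAST+ 2.17.0 were used.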

Additional observations from a re-analysis of the deposited data

Results flagged for a closer look

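The lncRNA to coding ratio differed between N-MYC and WDR5 in untreated cells by 0.0238, averaged over CHP-134 with DMSO and IMR-32 (exact permutation of the protein labels within each line, p = 0.0333). LncRNA windows thus stood somewhat closer to coding windows for N-MYC than for WDR5. The difference was 0.0169 in CpG-rich windows (p = 0.667), 0.0556 in windows that were not CpG-rich (p = 0.0167) and 0.00619 among the top 1000 peaks of each list (p = 0.65), all by the same exact permutation test. N-MYC lists were longer than WDR5 lists in both lines, and the part of list length in the result was not tested beyond the last of these values.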

How the results depend on the processing

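For the 6 results past p of 0.05, 66 of 73 values under other settings kept direction and side of the threshold, as did 46 of 50 with 1 library left out. The other tests could not pass it in this design. With the top 1000 peaks of each list the E-box difference was −4.14 points (exact permutation test, p = 0.156), the N-MYC against WDR5 ratio 0.00619, the compound against DMSO ratio 0.0174 (exact permutation test, p = 0.1), and N-MYC, WDR5 and both proteins were counted at 34, 40 and 10 lncRNA windows with DMSO and N-MYC at 32 in IMR-32, where fewer peaks are entered. With −log10 q of at least 5, WDR5 was counted at 49 and both proteins at 37. The compound against DMSO ratio also turned to 0.000479 by summits, 0.000283 with 500 bp, 0.00367 with −log10 q of at least 5, 0.00125 outside CpG-rich windows and 0.00227 without the short lists. In CpG-rich windows the N-MYC against WDR5 ratio was 0.0169, WDR5 at N-MYC windows 1.68 points, the fold percentile 0.564 and summits near a start −0.754 points. In other windows the E-box difference was −0.229 points and the difference between lines for N-MYC 0.00628. The cause of these changes was not tested.

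Leaving out 1 library gave −21.3 to −18.2 points for N-MYC, −5.93 to −4.24 for WDR5, 0.0218 to 0.0265 for the N-MYC against WDR5 ratio, −0.00565 to 0.00281 for the compound, −0.00732 to 0.00113 and 0.00283 to 0.0118 for the lines (N-MYC and WDR5), −5.81 to −4.44 for WDR5 at N-MYC windows, −2.18 to −1.70 for fold percentiles, 3.58 to 4.22 for E-boxes and −11.8 to −10.5 for summits near a start. Counts ranged from 278 to 388 (N-MYC), 37 to 58 (WDR5) and 30 to 59 (both). Same-numbered libraries did not deviate together throughout (correlations of 0.00935, 0.0475 and 0.0587 between N-MYC and WDR5 with DMSO, and −0.138, −0.0665 and −0.0209 between DMSO and compound WDR5), so numbers were not taken as pairs. Between DMSO and compound N-MYC they were 0.114, 0.0609 and 0.217, each the highest for its number, a hint from the data and not from the design. With the replicate block the N-MYC against WDR5 ratio was 0.0180 over the 3 pairs of CHP-134 alone (exact permutation test, p = 0.25, the smallest that 3 pairs allow, so the loss of the call was set by the design), the compound ratio −0.00119, and the ratios between lines −0.00379 and 0.0118. Peak lists carry no depth, so a window without a peak is not shown to be unbound.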

Other observations

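The share of lncRNA windows with N-MYC in at least 2 DMSO libraries ranged over chromosomes from 1.05% on chromosome 18 to 5.54% on chromosome 17.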
